A study of Arabidopsis thaliana with 19 samples.

Results

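Of the 21021 loci measured in sorted shoot apex cells, 3079 had their highest mean in the cells labelled subepidermal, those that carry the HDG4 promoter reporter. A stricter choice left the 34 genes described here. A gene was taken where its mean signal in HDG4 was at least 200, where that mean was at least 2 times the mean of each of the other 6 reporters, and where it was called present on all 3 HDG4 arrays. Before named exclusions 35 loci met these conditions, and SEOR1, a sieve element gene, was set aside by name together with SEOR2, UFO and HDG7, which did not meet them. The genes were thus chosen by their mean signals in HDG4 and in the other reporters, and these levels and ratios are given below as a description with no test. For the 34 genes, tests were made only among the other 6 reporters. The choice did not rank these, but it kept each of them under a limit set by HDG4, which can bear on their differences.

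The shoot apex is built of cell layers, with the epidermis outside and the subepidermal layer directly beneath it. Subepidermal cells form much of the inner tissue of leaves and floral organs, and in anthers and ovules they give rise to the germ cells. HDG4 belongs to the class IV HD-ZIP family of homeodomain transcription factors, a family best known for regulators of epidermal identity such as ATML1 and PDF2.

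The cells came from ap1-1;cal1-1 plants, which form masses of meristems in place of flowers, and every group shares this genotype, an age of 28 days and protoplasting of the apices before fluorescent sorting. The groups were subepidermal cells (HDG4, n = 3), adaxial cells (LAS, n = 2), cells of the organ circumference (KAN1, n = 3), epidermal cells (AtML1, n = 2, and HMG, n = 3), phloem (S17, n = 3) and xylem of the stem (AtHB8, n = 3), 19 arrays in all. Each reporter is a promoter fusion, so a population holds whatever cells that promoter marks, and RNA was amplified in 2 rounds before hybridisation to Affymetrix ATH1 arrays. Levels are MAS5 signals, a brightness per probe set on a linear scale that can be compared between arrays but not between genes. Nothing in the labels tells whether the replicates are separate plants or cultures, so spreads and p-values describe these arrays alone and may be technical.

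Median signals lay between 151 and 182 on the 19 arrays, and having 2 or 3 of them per reporter limits precision. Epidermal markers were low in HDG4 cells, with a summed signal of 4644 to 5331 over 11 genes, against 77118 to 90802 in AtML1 and HMG cells. None of these 11 markers was called absent on all HDG4 arrays. Sieve element markers were measurable in HDG4 cells, where 9 genes summed to 4784, 3545 and 2181, against 10829 to 13663 in S17, 4835 to 6894 in AtHB8, 713 to 1442 in KAN1 and 204 to 433 in LAS, AtML1 and HMG. BAM3 made up most of the vascular sums, with means of 10722 in S17 and 4644 in AtHB8, against 655 in HDG4. Of the 9 genes, 4 had their highest mean in HDG4, namely SEOR1, SEOR2, CALS7 and NAC045, the last called absent on all 19 arrays. SEOR1 and SEOR2 had higher HDG4 means than BAM3, with SEOR2 at 744 in HDG4 and 377 in S17. The HDG4 transcript itself averaged 49.5 in HDG4 cells and was called absent on all 19 arrays, so it does not check the label. In sorted populations, fewer cells of a type and less RNA per cell cannot be told apart.

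The 34 genes had HDG4 means between 208 and 3477, with a median of 578. Their medians were 132 in LAS, 106 in KAN1, 113 in AtML1, 134 in HMG, 97.5 in S17 and 95.2 in AtHB8. The ratio of the HDG4 mean to the next reporter was between 2.01 and 18.9, with a median of 2.33. Only 6 genes reached a ratio of 3 and 23 were under 2.5, so most of the genes lay close to the limit of the choice.

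**Figure D1:**
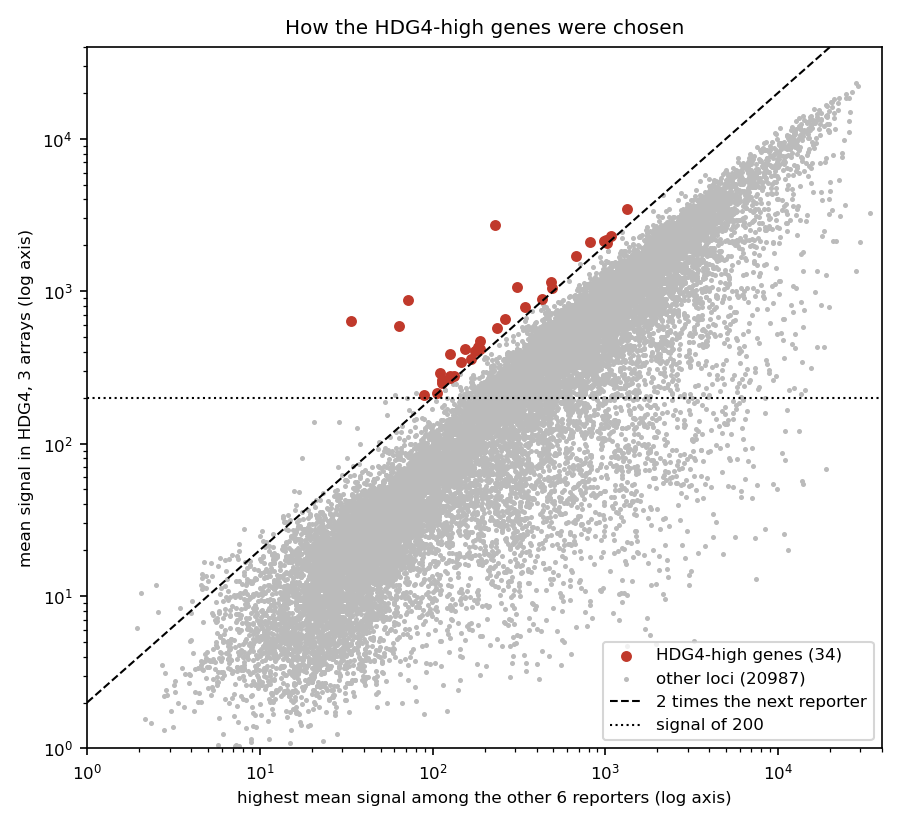
Mean HDG4 signal (vertical log axis, 3 arrays) against the highest mean among the other 6 reporters (horizontal log axis) for each of 21021 loci. The 34 genes (red) lie above a signal of 200 (dotted line) and on or above 2 times the next reporter (dashed line), with 4 of them far above it and most close to it.

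In 29 of the 34 genes, every HDG4 array lay above all 16 other arrays, which was so for 1.54% of all loci, and the choice itself used this contrast. The HDG4 range overlapped that of the other arrays in DREB19, AT5G23480, AT1G63100, AT5G55050 and AT1G03720. Spread between the HDG4 arrays was uneven from gene to gene, with a coefficient of variation between 6.0% and 94.8% and a median of 24.9%. Replicate 4 held the highest HDG4 value in 16 genes, replicate 3 in 10 and replicate 1 in 8. Over the 34 genes the median signals on HDG4 replicates 1, 3 and 4 were 401, 484 and 638, and the 3'/5' ratios of one actin control were 7.31, 11.4 and 16.2 on the same arrays, against 4.44 to 19.7 elsewhere. A further actin control ran the other way, with 3'/5' ratios of 105, 97.1 and 68.6 on these arrays, against 77.8 to 177 elsewhere. The part of RNA quality in the spread was not tested. The choice held for 15 genes whichever array was left out, and 16 genes fell short when some HDG4 array was left out.

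**Figure D2:**
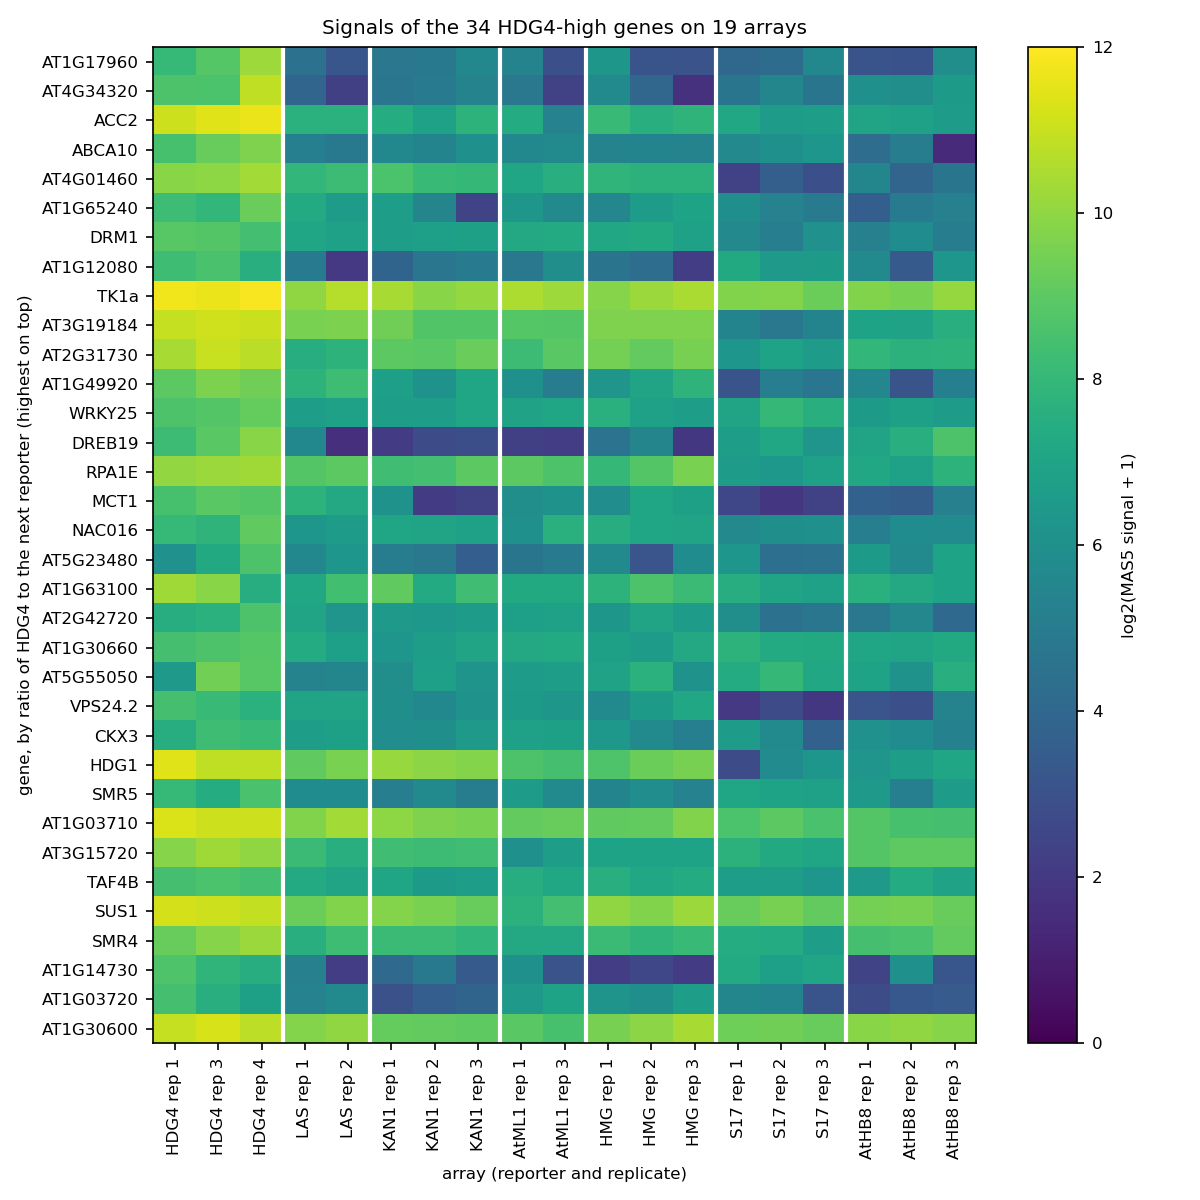
Signals of the 34 genes on the 19 arrays, as log2(MAS5 signal + 1) by colour, with genes down the page by falling ratio to the next reporter and arrays across it, white lines parting the reporters. The 3 HDG4 columns on the left are brightest in nearly every line, and the S17 and AtHB8 columns on the right are the darkest of the line for AT4G01460 and VPS24.2.

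The next highest reporter differed from gene to gene. It was HMG for 8 genes, S17 for 7, LAS, AtML1 and AtHB8 for 5 each, and KAN1 for 4. Among the 10080 loci with an HDG4 mean of at least 200 and present calls on its arrays, LAS was the highest of the other reporters in 25.7%, AtML1 in 15.9%, AtHB8 in 15.8%, HMG in 15%, S17 in 14.5% and KAN1 in 13.2%. S17 was the lowest reporter for 12 genes and AtHB8 for 9, against 31.5% and 20.5% of those loci. Called absent on every array of the other reporters were 3 genes, AT1G17960, SMR5 and AT1G03720, and 7 genes were called present on every array of all 7 reporters.

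By position, 15 of the 34 genes are on chromosome 1, which is 44.1% against 25.9% of all loci in the table. Chromosome 5 holds 7 of them, chromosome 3 holds 5, chromosome 2 holds 4 and chromosome 4 holds 3. AT1G03710 and AT1G03720 are adjacent, with 0 protein-coding genes between them in the RefSeq annotation TAIR10.1, and AT1G30600 and AT1G30660 have 5 between them. All 34 are measured by probe sets without a suffix for shared sequence, and 18 have no symbol in the reference tables and are named by locus.

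The 4 highest ratios belonged to AT1G17960, AT4G34320, ACC2 and ABCA10. AT1G17960, annotated as a threonyl-tRNA synthetase that charges threonine onto its transfer RNA, was at 261, 453 and 1199 on the HDG4 arrays, against 6.6 to 79.6 on the other 16 arrays (median 19.9). It was called absent on all 16 of those. The ratio of arithmetic means to KAN1, the next reporter, was 18.9. By geometric means, with absent signals raised to the lowest present one, the ratio to the highest other reporter was at least 14.2. AT4G34320, an unknown protein in the deposited annotation, was at 399, 392.3 and 1831 in HDG4 cells, against 2.3 to 93.2 on the other 16 arrays (median 26.0). Replicate 4 stood far above replicates 1 and 3 in both genes, yet all 3 HDG4 values were above every other array.

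ACC2 (AT1G36180) encodes a plastid acetyl-CoA carboxylase, the enzyme that makes malonyl-CoA for fatty acid synthesis, although the deposited description calls the locus a pseudogene. Whether its probes also bind transcripts of the related gene ACC1 was not tested. Its signals were 2169, 2752 and 3243 in HDG4 cells, against 38.5 to 279 on the other 16 arrays (median 155). The mean of 2721 ± 538 (SD, n = 3) was 11.9 times that of HMG, the next reporter, at 229.6 ± 46.7 (n = 3). Among the other 6 reporters ACC2 differed (moderated F test of limma, adjusted p = 0.0393), with further means of 203 in LAS, 169 in KAN1, 102 in AtML1, 113 in S17 and 114 in AtHB8. ABCA10 (AT5G61740), an ABC transporter of the A subfamily, was at 363, 591 and 807 in HDG4 cells, against 1.8 to 78.5 on the other 16 arrays (median 41.4). It was called present on all S17 arrays, at 48.8, 64.0 and 78.5, and absent on all AtHB8 and AtML1 arrays.

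**Figure D3:**
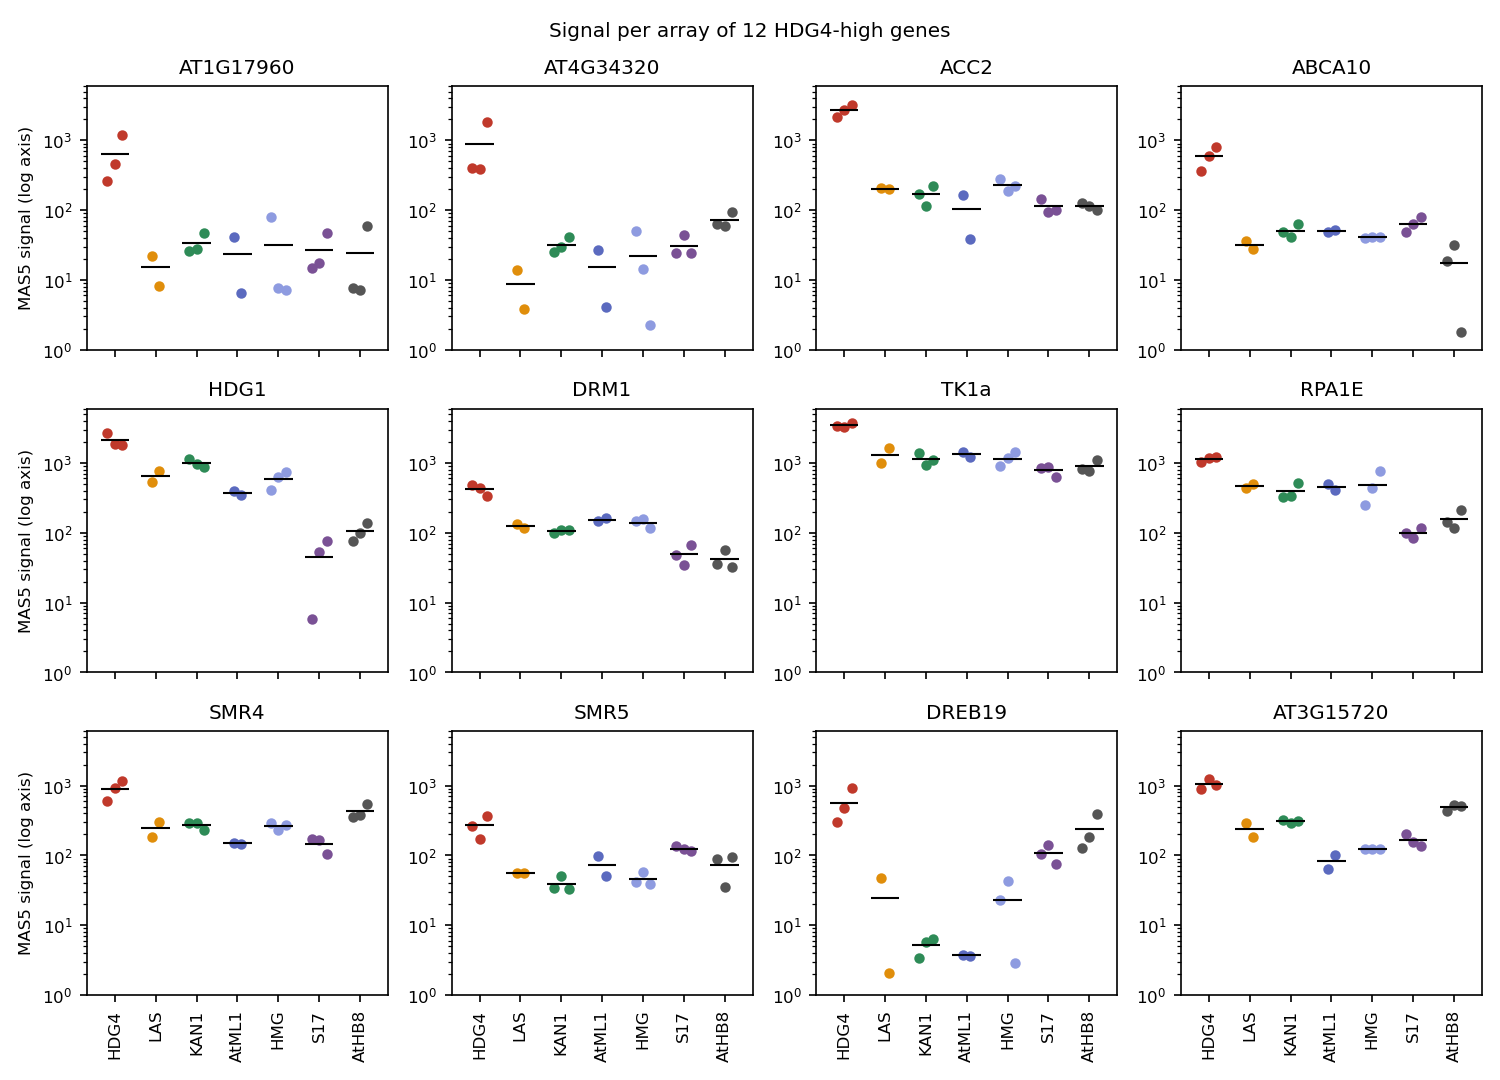
MAS5 signal per array (log axis) of 12 of the genes in the 7 reporters, where each point is an array and each line the mean of a reporter. In the top row the 3 HDG4 points stand apart from 16 low ones, while HDG1, DRM1 and RPA1E are lowest in S17 and AtHB8, and SMR4, DREB19 and AT3G15720 have AtHB8 as the next reporter.

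Transcription factors and related regulators made up 8 of the genes. HDG1 (AT3G61150), a class IV HD-ZIP factor, was at 2700.2, 1856 and 1823 in HDG4 cells. It was next highest in KAN1, at 1124, 955 and 878, and lower in LAS at 541 and 764, in HMG at 408, 639 and 747, and AtML1 averaged 375 ± 34.9 (SD, n = 2). S17 had 5.8, 53.7 and 77.2 and AtHB8 76.3, 101 and 138. The HDG4 arrays therefore did not overlap any other reporter, and the vascular arrays were all below the rest. Among 15 listed genes of the class IV HD-ZIP family, all with a probe set and not counting HDG7, HDG1 was the only one to meet the conditions. Without HDG4 replicate 1 its ratio was 1.87, under the limit.

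AT4G01460, a basic helix-loop-helix protein, was at 927, 982 and 1272 in HDG4 cells, against 394, 272 and 256 in KAN1, the next reporter. It was called absent on all S17 and AtHB8 arrays, where the highest signal was 44.9. AT3G19184, of the B3 DNA-binding family, was at 1966, 2214 and 2125 in HDG4 cells, against 815, 808 and 817 in HMG and 42.2, 27.4 and 42.2 in S17. Its HDG4 arrays varied by only 6.0%, together with TAF4B the smallest spread of the set.

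WRKY25 (AT2G30250), a factor of heat and pathogen responses, was at 402, 439.6 and 569 in HDG4 cells and at 93.1 to 253 on the other 16 arrays (median 116). DREB19 (AT2G38340), an AP2/ERF factor of the dehydration response group, was at 301, 482 and 925 in HDG4 cells, against 129, 186 and 395 in AtHB8 and 105, 139 and 76.4 in S17. The lowest HDG4 array lay below the highest AtHB8 array, and the gene was called absent on all arrays of LAS, KAN1, AtML1 and HMG. NAC016 (AT1G34180), a NAC factor that promotes leaf senescence, was at 262, 221 and 541 in HDG4 cells, against 179.8, 134 and 127 in HMG, and it stood at 1.65 times HMG without HDG4 replicate 4.

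AT1G63100, annotated to the SCARECROW family of GRAS regulators, had the most uneven HDG4 arrays among the regulators, at 1263, 938 and 175. Replicate 4 lay within the range of 542, 163 and 319.9 in KAN1, the next reporter. TAF4B (AT1G27720), a subunit of the general transcription factor TFIID, was at 349, 383 and 343 in HDG4 cells, against 188, 147 and 167 in HMG, and no array of another reporter passed 188.

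Several genes act on DNA or on the cell cycle. TK1a (AT3G07800), a thymidine kinase that supplies nucleotides for DNA synthesis, was at 3428, 3227 and 3775 in HDG4 cells. Its other 16 arrays spanned 623 to 1627, with a highest reporter mean of 1338 ± 159 (SD, n = 2) in AtML1. RPA1E (AT4G19130), a large subunit of the replication protein A complex that binds single-stranded DNA, was at 1046, 1185 and 1230.2 in HDG4 cells. Next came HMG, at 254, 444 and 764, while S17 had 99.6, 83.1 and 116. Both genes thus had tight HDG4 arrays that lay clear of all others. AT1G30660, with a toprim domain as found in primases and topoisomerases, was at 354, 405 and 463 in HDG4 cells, against 78.8 to 216 on the other 16 arrays (median 142).

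DRM1 (AT5G15380), a de novo DNA methyltransferase of the family that acts in RNA-directed DNA methylation, was at 477, 442 and 337 in HDG4 cells, against 148 and 161 in AtML1 and 145, 156 and 117 in HMG. It was called absent on all arrays of AtML1, S17 and AtHB8. Its AtML1 signals were above the lowest present ones of those arrays (26.5 and 31.4), so none was raised. The ratio to AtML1 was 2.66 by geometric and 2.7 by arithmetic means. The SIAMESE-RELATED genes encode small proteins that bind and inhibit cyclin-dependent kinases, and both SMR4 and SMR5 were among the 34. SMR4 (AT5G02220) was at 593, 917 and 1170.4 in HDG4 cells, against 356, 379 and 555 in AtHB8, the next reporter. SMR5 (AT1G07500), known to be induced by DNA damage and oxidative stress, was at 266, 173 and 373 in HDG4 cells, against 137, 125 and 115 in S17, where it was called absent. HDG4 and the next reporter did not overlap for either gene, but without HDG4 replicate 4 the ratios were 1.76 and 1.75.

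Genes of metabolism and hormones followed. SUS1 (AT5G20830), a sucrose synthase that splits sucrose for use in the cell, was at 2432, 2159 and 1888 in HDG4 cells. HMG was next, at 1022, 839 and 1174, and AtML1, at 208 and 337, was lowest, so the epidermal reporters lay at the opposite ends of the other 6. CKX3 (AT5G56970), a cytokinin oxidase that degrades this hormone, was at 177, 306 and 269 in HDG4 cells, against 12.1 to 116 on the other 16 arrays (median 63.6). AT2G31730, described in the deposited table as a putative ethylene-responsive protein, was at 1383, 2036 and 1705 in HDG4 cells, against 726, 562 and 754 in HMG and 503, 487 and 604 in KAN1.

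Enzymes that cut proteins or cell walls were a further group. AT1G65240, an aspartyl protease, was at 304, 249.5 and 602 in HDG4 cells, against 159 and 94.6 in LAS, and was called absent on all S17 and AtHB8 arrays. AT1G30600, a subtilase, was at 1956, 2436 and 1779 in HDG4 cells, against 737, 953 and 1376 in HMG and 882 and 1033 in LAS. AT3G15720, a polygalacturonase of the kind that digests pectin, was at 899, 1250.1 and 1014 in HDG4 cells, against 438, 522 and 516 in AtHB8. The HDG4 arrays of these 3 enzymes all lay above the other 16.

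The neighbours AT1G03710 and AT1G03720 had unlike patterns. AT1G03710, related to cystatin inhibitors of cysteine proteases, was at 2592, 2146 and 2167 in HDG4 cells, against 839.7 and 1310.1 in LAS, and its weakest reporter AtHB8 still averaged 386. AT1G03720, related to cathepsins, was at 354, 181 and 111 in HDG4 cells, against 88.5 and 123 in AtML1. It was called absent outside HDG4, and one AtML1 array lay above the lowest HDG4 array. AT5G55050, a GDSL lipase, was at 86.2, 701 and 475 in HDG4 cells, against 166, 253 and 144 in S17, so its ratio rested on replicates 3 and 4.

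The remaining 7 genes are AT1G12080, MCT1, VPS24.2, AT1G49920, AT2G42720, AT5G23480 and AT1G14730. AT1G12080, similar to vacuolar calcium-binding proteins, was at 305, 378 and 189 in HDG4 cells, against 153, 87.9 and 92.0 in S17. MCT1 (AT1G37140), an RNA-binding protein of the MEI2 type, was at 358, 485 and 441 in HDG4 cells, against 215 and 151 in LAS, and was called absent on all arrays of KAN1, AtML1, S17 and AtHB8. HDG4 did not overlap the next reporter in either gene. VPS24.2 (AT3G45000), of the SNF7 family of ESCRT proteins that sort membrane cargo, was at 355, 279.8 and 200.1 in HDG4 cells, against 127 and 126 in LAS.

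AT1G49920, a zinc finger protein, was at 506, 787 and 674 in HDG4 cells, against 218 and 309 in LAS. AT2G42720, an F-box protein, was at 179.6, 200.4 and 398 in HDG4 cells, against 108 and 117 in AtML1. Both were higher on each HDG4 array than anywhere else. AT5G23480, similar to SWIB domain proteins, was at 67.0, 154 and 404 in HDG4 cells, and its replicate 1 lay within the 93.2, 50.1 and 125 of AtHB8. AT1G14730, similar to cytochrome b561 electron carriers, was at 419, 229 and 179 in HDG4 cells, against 161, 107 and 131 in S17, and was called absent on all arrays of the other 5 reporters.

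At the limit of the choice, AT1G14730 (ratio 2.07), AT1G03720 (2.03) and AT1G30600 (2.01) lay just inside. Just outside were AT5G60250, at 4264 in HDG4 and 2145 in LAS (ratio 1.99), SEOR2, at 744 in HDG4 and 377 in S17 (1.97), and PARP2, a poly(ADP-ribose) polymerase of the DNA damage response, at 2446 in HDG4 and 1258 in LAS (1.95). SYTD (HDG4 mean 216, ratio 2.69) and NUC-L2 (HDG4 mean 207, ratio 3.40) failed only because an HDG4 array was not called present. The same conditions turned to each of the other reporters found 28 genes for LAS, 65 for KAN1, 25 for AtML1, 29 for HMG, 466 for S17 and 255 for AtHB8.

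How the genes varied among the other 6 reporters was tested with limma on log2(signal + 1), where a call needed a 2-fold difference or more together with a Benjamini-Hochberg adjusted p below 0.05. AT5G23480 did not pass the filter on low signals and 33 genes were tested, together with 15161 probe sets in all. Any difference among the 6 reporters was found in 24 of the 33 genes by the moderated F test, 72.7%, against 72.5% of all probe sets tested. AT1G17960, AT4G34320 and ABCA10 passed the filter on low signals through the HDG4 arrays alone. With the filter set on the 6 other reporters, an alternative chosen after seeing the data, 23 of 30 genes differed, 76.7%, against 72.8% of 15081 probe sets. The 9 of the 33 genes not called by limma's F test were AT1G17960 (adjusted p = 0.857), AT4G34320 (0.0563), AT1G65240 (0.121), TK1a (0.058), WRKY25 (0.0808), AT1G63100 (0.326), AT1G30660 (0.0519), AT5G55050 (0.141) and CKX3 (0.154). The smallest value was that of AT3G19184 (limma adjusted p = 1.35e-09).

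Between the vascular reporters (S17 and AtHB8) and the epidermal reporters (AtML1 and HMG), 12 of the 33 genes were lower in vascular cells and 4 were higher, while 17 were not called. Over all probe sets tested, 13.0% were lower and 16% higher. The median log2 difference was -0.59 for the 33 genes and -0.11 for all probe sets. AT3G19184 was at 27.4 to 183 in vascular cells and 434 to 817 in epidermal cells, 8.32-fold lower (log2 -3.06 ± 0.16 SE, limma adjusted p = 4.63e-10). HDG1 was at 5.8 to 138 in vascular cells and 351 to 747 in epidermal cells, 8.29-fold lower (log2 -3.05 ± 0.46, limma adjusted p = 4.13e-05). The vascular and epidermal ranges did not overlap for either gene. No S17 array was called present for HDG1, and most were called absent for both genes, so these folds rest partly on signals not told from background.

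AT4G01460 was at 4.2 to 44.9 in vascular cells and 131 to 229 in epidermal cells, at least 6.07-fold lower (log2 -3.68 ± 0.26, limma adjusted p = 1.57e-08). VPS24.2 was at least 3.05-fold lower (log2 -3.42 ± 0.39, limma adjusted p = 1.97e-06) and MCT1 at least 2.80-fold lower (log2 -3.09 ± 0.57, limma adjusted p = 0.000264). These are bounds, because a reporter on the dimmer side was called absent on all its arrays. RPA1E was 3.62-fold, AT2G31730 3.41-fold and NAC016 2.42-fold lower, and DRM1 at least 3.22-fold, AT2G42720 at least 3.05-fold and AT1G49920 at least 2.37-fold. AT1G03720, the last of the 12, was called absent on every array of both sides, so its call compares signals not told from background and no fold is given. With the filter set on the 6 other reporters, 12 of 30 genes were lower and 3 higher, since AT4G34320 was then not tested.

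Higher in vascular cells were DREB19, AT1G14730, AT4G34320 and AT3G15720. DREB19 was at 76.4 to 395 in vascular cells and 2.9 to 43.3 in epidermal cells, at least 4.78-fold higher (log2 4.1 ± 0.67, limma adjusted p = 8.46e-05). AT3G15720 was at 136 to 522 in vascular cells and 64.0 to 123 in epidermal cells, 2.82-fold higher (log2 1.5 ± 0.16, limma adjusted p = 1.14e-06). Neither gene had overlapping ranges. AT1G14730 was at least 1.28-fold higher (log2 2.07 ± 0.68, limma adjusted p = 0.0154) and AT4G34320 at least 2.32-fold (log2 1.88 ± 0.64, limma adjusted p = 0.0194). Without AtML1 replicate 3 these differences were log2 1.33 (limma adjusted p = 0.126) and log2 1.27 (0.137), and neither was called.

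**Figure D4:**
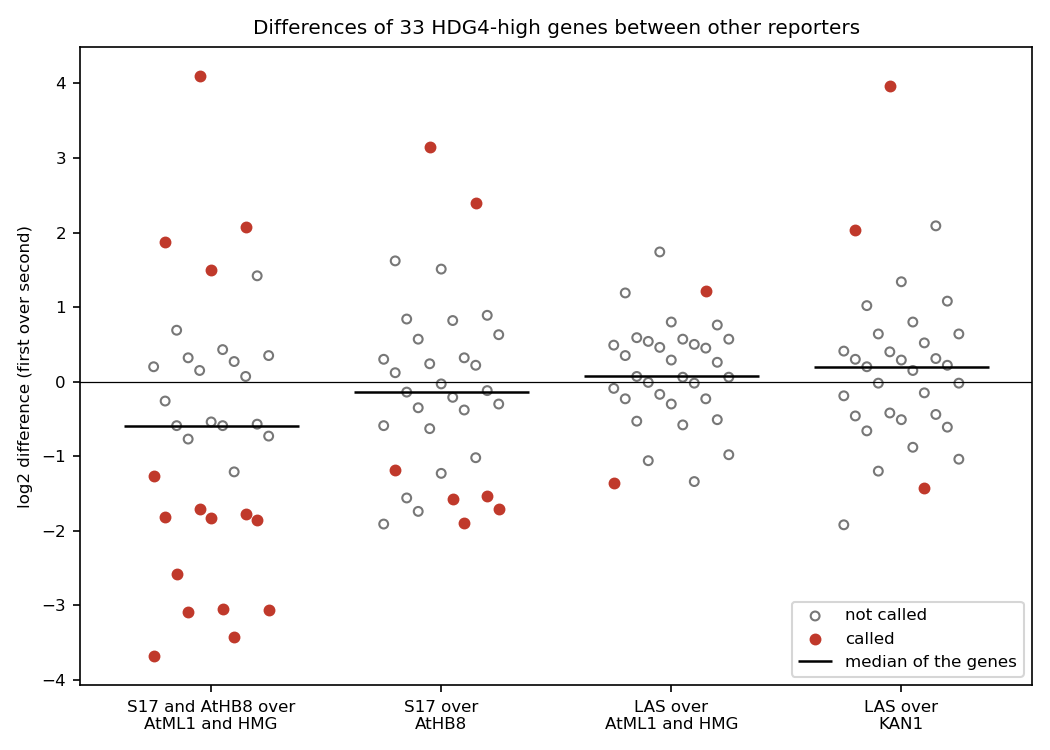
Log2 difference of 33 genes in 4 comparisons among the other reporters (vertical axis, first over second), where each point is a gene, filled where called, and lines are medians. Points of the comparison of S17 and AtHB8 with AtML1 and HMG reach down to -3.68 (12 called lower) and up to 4.1 (4 called higher), and in the comparisons of LAS few are filled.

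Between the vascular reporters themselves, 5 genes were lower and 2 higher in S17 than in AtHB8, against 4.20% lower and 4.35% higher over all probe sets. SMR4 was at 105 to 171 in S17 and 356 to 555 in AtHB8, 2.91-fold lower (log2 -1.54 ± 0.27, limma adjusted p = 0.00126). AT3G15720, at 136 to 205 in S17 and 438 to 522 in AtHB8, was 2.99-fold lower (log2 -1.58 ± 0.21, limma adjusted p = 0.000152). AT3G19184 was 3.74-fold and AT2G31730 2.27-fold lower, and AT4G01460 was called absent on both sides and fell short of the 2-fold minimum with a pseudocount of 16 (log2 -0.85). None of the S17 arrays of the first 4 genes reached those of AtHB8.

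ABCA10, at 48.8 to 78.5 in S17 and 1.8 to 31.4 in AtHB8, was at least 1.93-fold higher in S17 (log2 2.39 ± 0.61, limma adjusted p = 0.0152). Without S17 replicate 3 its adjusted p was 0.0549 by limma and it was not called, and it was not tested with the filter set on the 6 other reporters. AT1G14730 was at least 3.18-fold higher (log2 3.15 ± 0.90, limma adjusted p = 0.0282), and it lost the call without AtHB8 replicate 1 (limma adjusted p = 0.121), AtHB8 replicate 3 (0.102), S17 replicate 1 (0.0832), S17 replicate 2 (0.0559) or S17 replicate 3 (0.0686), and with no filter on low signals (0.0577).

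In the comparisons of LAS few of the genes were called, as was so for all probe sets. Against the epidermal reporters, which also served the vascular comparison, 1 gene was higher in LAS (3.0%) and 1 lower (3.0%). Over all probe sets 2.07% were higher and 3.90% lower. AT3G15720 was at 292 and 184 in LAS and 64.0 to 123 in epidermal cells, 2.31-fold higher (log2 1.21 ± 0.22, limma adjusted p = 0.00278). Without LAS replicate 1 it was at log2 0.87 (limma adjusted p = 0.0893) and not called. AT2G31730 was at 179 and 218 in LAS and 299 to 754 in epidermal cells, 2.56-fold lower (log2 -1.36 ± 0.23, limma adjusted p = 0.0015). In both genes the LAS arrays lay outside the epidermal range.

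Against KAN1, 2 genes were higher in LAS (6.1%) and 1 lower (3.0%), where 3.75% and 7.22% of all probe sets were called in these directions. MCT1 was at 215 and 151 in LAS and 69.3, 3.4 and 4.1 in KAN1, at least 4.99-fold higher (log2 3.96 ± 0.86, limma adjusted p = 0.00546). AT2G31730 was at 503, 487 and 604 in KAN1 and thus 2.67-fold lower in LAS (log2 -1.42 ± 0.25, limma adjusted p = 0.00136). AT1G03720 was called higher in LAS (limma adjusted p = 0.0265) with absent calls on both sides. Without LAS replicate 1 MCT1 was not called (limma adjusted p = 0.0569), and AT1G03720 lost its call without LAS replicate 1 (0.0965), LAS replicate 2 (0.141), KAN1 replicate 1 (0.0821) or KAN1 replicate 2 (0.0595), and with no filter on low signals (0.0544).

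Genes of the same pathways that did not meet the conditions were set in HDG4 against the equally weighted mean of the other 6 reporters, a comparison in which 4.05% of the tested probe sets rose and 8.47% fell, around a median log2 difference of 0.05. Of the 10 lists, mitosis genes were most often higher, with 8 of 15 called higher and none lower and a median of 1.05. The mitotic cyclin CYCB1;1 was 3.29-fold higher (log2 1.72 ± 0.17, limma adjusted p = 4.31e-06), CYCB1;3 2.80-fold (log2 1.49 ± 0.21, limma adjusted p = 0.000101), CYCB2;4 2.63-fold (log2 1.40 ± 0.24, limma adjusted p = 0.000467) and the kinesin HIK, which acts in cytokinesis, 2.31-fold (log2 1.21 ± 0.17, limma adjusted p = 0.000109). HDG4 had the highest mean of all 7 reporters in 5 of these 8 genes, whereas KAN1 was above it in CYCB2;2, CDKB2;2 and MAD2, with CYCB2;2 at 953 in HDG4 and 983 in KAN1. S17 and AtHB8 were the lowest 2 reporters in 4 of the 8, so these folds exceed the distance to the nearest reporter. HIK was at 2008 in HDG4, 1542 in LAS and 307 in S17, and CYCB1;1 at 4418 in HDG4, 2733 in KAN1 and 381 in S17. DNA replication genes had 4 of 19 higher and none lower, namely PCNA2, MCM2, MCM7 and MCM3, with a median of 0.83 and differences of log2 1.32, 1.22, 1.12 and 1.04. S17 and AtHB8 were the lowest reporters for all 4, and others came close to HDG4, with PCNA2 at 4067 in HDG4 and 4035 in LAS and MCM2 at 1809 in HDG4 and 1825 in LAS. Without HDG4 replicate 3 MCM2 (log2 0.98) and MCM3 (log2 0.97) fell short of the 2-fold minimum.

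In the class IV HD-ZIP list, 4 of the 8 tested genes other than HDG1 were lower in HDG4, namely PDF2, HDG5, ATML1 and HDG2, with log2 differences between -2.82 and -1.84. S17 and AtHB8 had lower means than HDG4 in all 4, as with ATML1 at 332 in HDG4, 118 in S17 and 97.3 in AtHB8. HDG5 was called absent on all HDG4, S17 and AtHB8 arrays. ANL2 was called higher (at least 2.31-fold, limma adjusted p = 0.0356), although its mean was 990 in HDG4 and 1532 in KAN1. Without HDG4 replicate 1 (limma adjusted p = 0.208), HDG4 replicate 3 (0.151) or LAS replicate 1 (0.0551), or with no filter on low signals (0.067), ANL2 was not called. Photosynthesis genes were lower in 15 of 20 cases and higher in none, with a median of -1.29, as with PSAG, a photosystem I subunit, 3.43-fold lower (log2 -1.78 ± 0.37, limma adjusted p = 0.00183). In 6 of the 15 the mean of another reporter was lower still, as with GAPA at 933.5 in HDG4 and 608.5 in HMG, while S17 or KAN1 was the highest reporter for all 15.

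In the sieve element and phloem list, 3 of 16 genes were higher (APL, BAM3 and CALS7) and 2 lower (SWEET12 and SWEET11), with a median of -0.25. APL averaged 202 in HDG4, with an absent call on an array, and 301 in S17. SWEET11 averaged 68.4 in HDG4, 48.0 in AtHB8 and 19064 in S17. SWEET12 averaged 11424 in S17 and was called absent on all arrays of HDG4, LAS, AtML1, HMG and AtHB8. CALS7, a callose synthase of sieve plates, was 3.02-fold higher (log2 1.59 ± 0.38, limma adjusted p = 0.00499), whereas BAM3 was higher by log2 1.91 but only 0.25 times the rest by arithmetic means. Of 7 anther and sporogenous genes none was called in either direction.

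Meristem genes had 5 of 15 higher (ULT1, WUS, CLV3, HAN and PNF) and KNAT1 lower, with a median of 0.69. Another reporter had a higher mean than HDG4 for 4 of the 5, with WUS at 77.6 in HDG4 and 208 in LAS, CLV3 at 95.9 in HDG4 and 199 in HMG, HAN at 727 in HDG4 and 970 in LAS and PNF at 1659 in HDG4 and 2133 in HMG. Floral organ identity genes had PI higher and AP1, SEP2 and SVP lower of 11, and abaxial and adaxial genes had FIL higher and AS1 and ZPR1 lower of 15. Auxin genes had YUC4 higher (751 in HDG4 but 801 in LAS) and 5 of 22 lower, namely PIN7, LAX2, LAX3, PIN3 and TAA1. LAX3 was called absent on all arrays except those of S17 (mean 780), so no fold is given. PIN7 was called absent on all HDG4, LAS, AtML1 and HMG arrays. Single arrays or settings decided several of these calls. Without HDG4 replicate 1, HAN was at log2 0.98 and WUS had a limma adjusted p of 0.0655 and CLV3 of 0.0511. Without HDG4 replicate 3, PIN3 was at log2 -0.90, SEP2 at log2 -0.55, WUS had a limma adjusted p of 0.103, CLV3 of 0.141 and LAX3 of 0.0841. Without HDG4 replicate 4, SVP was at log2 -0.89, AS1 at log2 -0.96 and CLV3 had a limma adjusted p of 0.0726. SEP2 lost the call without any of 16 single arrays, with limma adjusted p between 0.0527 and 0.442. With the replicate number as a block SVP was at log2 -0.87, AS1 at log2 -0.95 and CLV3 had a limma adjusted p of 0.133, and none of the 3 was called. Only HDG4 had a replicate 4, so the block fits that array alone and is not a check apart from leaving it out. A pseudocount of 16 took WUS to log2 0.97, CLV3 to log2 0.9 and PIN3 to log2 -0.94, under the 2-fold minimum. With quantile normalization PIN3 was at log2 -0.91 and SEP2 had a limma adjusted p of 0.0751, with no filter CLV3 had one of 0.0575 and SEP2 of 0.0892, and with array weights SVP was at log2 -0.98.

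**Figure D5:**
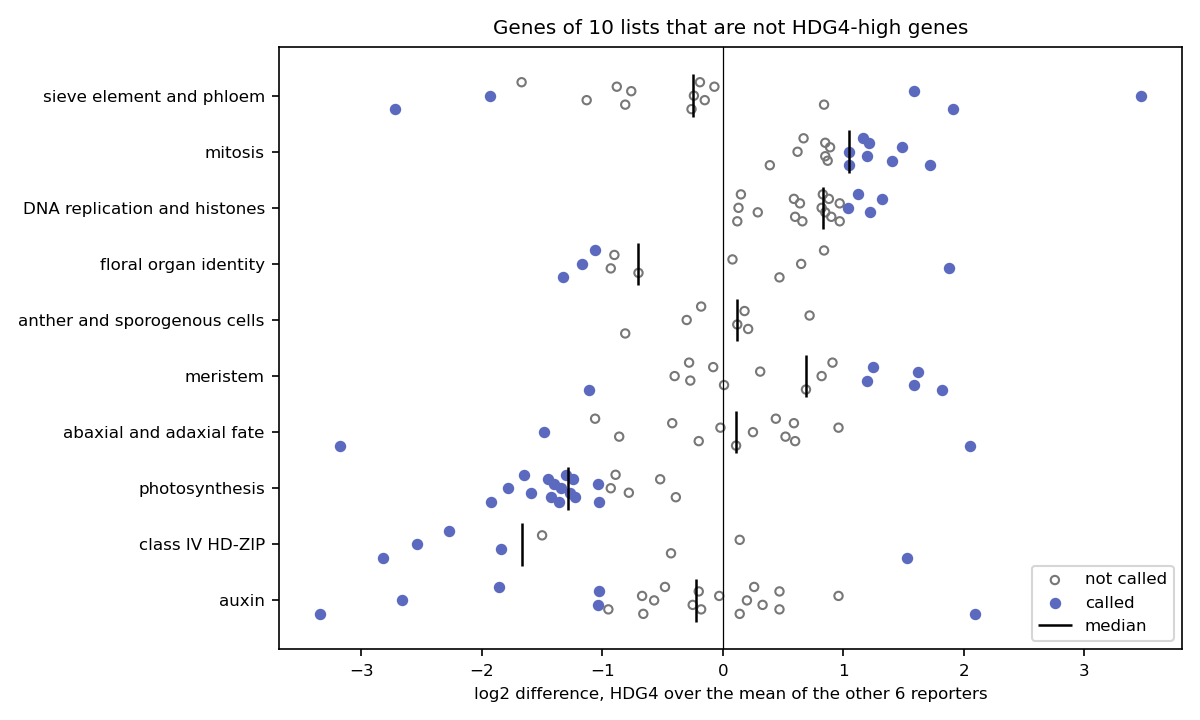
Log2 difference of HDG4 over the mean of the other 6 reporters (horizontal axis) for the tested genes of 10 lists, without the 34 genes, where each point is a gene, filled where called, and short lines are medians. Mitosis (median 1.05) and DNA replication (0.83) lie on the higher side and photosynthesis (-1.29) and class IV HD-ZIP (-1.67) on the lower side.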

How the data were processed

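The deposited intensity values are MAS5 signals on a linear scale, 1 per ATH1 probe set, which the authors had scaled. The submitters' processing notes name MAS5, with a version not given in the sources used here. After trimming 2% at each end, the mean of every array was 500.0. The authors' deposited averaged table holds the mean intensity per reporter, a locus for 21021 probe sets and detection calls (present, marginal or absent) per array. Its means differed by at most 0.005 from means of the arrays. Groups and replicate numbers came from the sample titles.

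The genes were selected on the averaged means and calls. The genes and lists were chosen with earlier results of these data known. Tests used log2(signal + 1), computed here from the deposited intensity, in limma 3.58.1 under R 4.3.3, with statmod 1.5.0. The model had 1 mean per reporter over 19 arrays and moderated variances, with 12 residual degrees of freedom and 3.06 from the prior. Tests were two-sided, with Benjamini-Hochberg adjustment over 15161 of 22746 probe sets. These had signals at or above the 40th percentile of the array throughout 1 or more reporters, and 64 control probe sets were left out. On simulated data with known changes, for LAS against the epidermal reporters, 87% of the changed probe sets among 15161 were recovered. These changes were larger than the 2-fold minimum of a call, and no other differences between reporters were put in. Recovery at that minimum was not tested. Folds are ratios of geometric means on that scale, where the added 1 lowers ratios of dim signals slightly. Differences of dim genes depend on this pseudocount, as with AT4G01460 in S17 against AtHB8 (log2 -1.71, but -0.85 with a pseudocount of 16). Where a reporter on the dimmer side was called absent on every array, its signals were raised to the lowest signal of the array among probe sets called present on all arrays of that reporter, and the text gives "at least". Such bounds are approximate, and the other folds can still include some arrays called absent.

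Genes with full statistics are the 15 with the highest ratio, the 10 with the highest HDG4 mean, those on a list, those called with the 4 largest differences per direction, those nearest the limit, and those sharing a function with at least 2 others. The rest are named so that all 34 are accounted for. List genes are named where called, at most 4 per direction, with PNF, TAA1 and further ones where a count of 5 or fewer is spelled out, chosen after their values were seen. A gene of the DNA damage response list is not reported here and was left out of its counts. Alternatives were another pseudocount, other filters, quantile normalization, array weights, the replicate number as a block, no fold minimum, a fit without HDG4, each array left out and, chosen after seeing the data, a filter set on the 6 other reporters.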

Additional observations from a re-analysis of the deposited data

How the results depend on the processing

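Of 470 counts recomputed under other settings, 439 stayed within 1.5 times, and of 1476 recomputed differences of named genes 60 lost the call and none changed sign. Of the 58 named differences, 39 were called under every alternative. With no fold minimum 1442 probe sets were called for LAS against the epidermal reporters (905 with it), 9209 for vascular against epidermal (4390), 2358 for S17 against AtHB8 (1297), 2833 for LAS against KAN1 (1664) and 5485 for HDG4 against the rest (1898), with 94 list genes. Of the 34 genes, 2 were higher in LAS than in epidermal cells with no fold minimum or a pseudocount of 16, against 1. With a 60th percentile filter 2 were higher in vascular than in epidermal cells, against 4. With that filter or none, 1 was higher in S17 than in AtHB8 and 1 in LAS than in KAN1, against 2 each. With the filter set on the 6 other reporters, a setting chosen after seeing the data, 1 was higher in S17 than in AtHB8. The filter settings change the number of probe sets adjusted over, and the cause was not tested.

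The choice found 112 genes at 1.5 times the next reporter, 6 at 3 times, and 7 where every HDG4 array was at least 2 times every other array. Without the S17 and AtHB8 arrays, a setting chosen after seeing the data, it found 59. With quantile normalization it found 37, of which 34 were the same, and with geometric means 30, of which 29 were the same.

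Leaving out 1 array at a time gave 529 to 969 probe sets for LAS against epidermal, with the lowest count without LAS replicate 1, 1098 to 1743 for LAS against KAN1, also lowest without LAS replicate 1, 4210 to 4526 for vascular against epidermal, 1121 to 1356 for S17 against AtHB8 and 1564 to 2066 for HDG4 against the rest, with 47 to 64 list genes. Any difference among the 6 others was found for 10357 to 11248 probe sets and 21 to 26 of the genes. The choice found 32 to 36 genes. Of them 1 to 2 were higher and 1 lower in LAS than in epidermal cells, 2 to 5 higher and 11 to 13 lower in vascular than in epidermal cells, 1 to 2 higher and 5 to 6 lower in S17 than in AtHB8, and 0 to 2 higher and 1 lower in LAS than in KAN1.

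Replicate numbers of the labels did not pair the samples: same-numbered arrays of different reporters had a median correlation of deviations of 0.004 (46 pairs, -0.227 to 0.206), and 4 of 19 arrays were closest to their own number. Only HDG4 had a replicate 4, so a block on the replicate number fits that array alone and HDG4 then rests on its other arrays. With the replicate block 904 probe sets were called for LAS against epidermal, 4362 for vascular against epidermal, 1329 for S17 against AtHB8, 1702 for LAS against KAN1 and 1965 for HDG4 against the rest, with 65 list genes. Of the 34 genes 5 were then higher in vascular than in epidermal cells, 25 had any difference among the 6 others, and the other counts of these genes in the 4 comparisons were as without the block.

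Genes near the limit of the choice and signals called absent carry the least certainty, since 2 or 3 arrays per reporter set the means. No library depth exists for arrays.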

Other observations

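DNA damage response genes were looked up after SMR5 and PARP2 had been seen, so their levels are a description. Of 15 such genes other than SMR5 and PARP2, 10 had a probe set, and 5 had their highest mean in HDG4 (BRCA1, PARP1, RAD17, WEE1 and KU70), against 14.6% of all loci. BRCA1, a repair protein that acts at broken DNA, averaged 1588 in HDG4 and 1008 in HMG, the next reporter. WEE1, a kinase that holds the cell cycle after DNA damage, averaged 1223 in HDG4 and 952 in LAS. SOG1, the NAC factor that controls this response, averaged 889 in HDG4 and 969 in LAS. Of 7 inhibitors of cyclin-dependent kinases other than SMR4 and SMR5, 0 were highest in HDG4, and SIM averaged 12.4 in HDG4 and 702 in S17.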
